A study of Saccharomyces cerevisiae with 7 samples.

Results

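The transcripts described here are those of the seripauperins and of the structural proteins of the cell wall of budding yeast, Saccharomyces cerevisiae. The members were every probe set whose gene symbol on the array platform was PAU followed by a number, and those of 23 named wall genes. This gave 38 of the 5498 probe sets that could be tied to a gene. Of them, 16 belonged to 13 seripauperin genes and 22 to 22 wall genes. No probe set was named only to FLO5, the remaining wall gene on the list. The wall genes were taken in 5 classes, with 6 mannoproteins held by a GPI (glycosylphosphatidylinositol) anchor, 3 other GPI proteins, 4 PIR proteins, 4 flocculins and 5 enzymes that remodel glucan and chitin.

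The samples were total RNA from 4 cultures of the wild type and 3 of an HMT1 deletion strain, called biological replicates in the labels, each on 1 Affymetrix Yeast Genome 2.0 array. HMT1 encodes the enzyme that carries out most arginine methylation of proteins in yeast. Both strains shared the BY4741 background, a MATa haploid with the alleles his3∆1, leu2∆0, met15∆0 and ura3∆0, and the deletion strain differed by a KANMX4 cassette in place of HMT1. Each group is labelled as 1 strain, and a difference that belongs to the strain rather than to HMT1 cannot be told apart from the deletion. The labels name YEPD, a phosphate-replete and a phosphate-depleted medium for the study, and do not tie these cultures to any of them. BY4741 descends from S288C, a laboratory lineage whose FLO8 gene carries a stop codon and which does not flocculate.

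The yeast wall is a mesh of glucan and chitin covered by mannoproteins. GPI proteins are cut from their membrane anchor and joined to the glucan, PIR proteins are bound to the glucan through internal repeats, flocculins bind the sugars of neighbouring cells, and Gas and Crh enzymes lengthen the glucan chains and cross-link them to chitin. Seripauperins, from the words for poor in serine, are small, near-identical proteins related to the Tir mannoproteins. Most of their genes lie next to telomeres, and many are known to be repressed by oxygen and haem and induced during anaerobic growth and fermentation.

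HMT1 itself was at 12.10, 11.76, 11.58 and 11.90 on the log2 scale in wild-type replicates 1 to 4 and at 5.03, 4.50 and 4.77 in deletion replicates 1 to 3. It fell by 7.07 (SE 0.15, limma adjusted p = 4.89e-07). The background was taken from 23 controls for tags and bacterial transcripts, whose means lay between 3.34 and 5.13, and the highest value in the whole table was 14.63. The a-cell markers MFA1, MFA2, STE2, STE6, BAR1 and AGA2 had wild-type means between 11.21 and 13.22, while MF(ALPHA)1, the main alpha-factor gene, stood at 4.11, 3.95, 4.12 and 4.11 in the wild type and 4.14, 4.11 and 4.11 in the deletion strain, within the background. The other alpha-cell markers MF(ALPHA)2, STE3 and SAG1 had wild-type means of 5.95, 6.89 and 9.01. On the 5 reporter probe sets for J01347 the signal was at most 4.44 in replicates 1 and 3 of the wild type and at least 6.16 on every other array. Among the wild-type arrays the same pairs were seen in all 6 a-cell markers, with replicates 2 and 4 both above 1 and 3. The deletion arrays did not all side with replicates 2 and 4 there. In AGA2 they lay between the pairs, and in STE6 deletion replicate 1, at 12.09, was below wild-type replicate 1, at 12.13. Whether the wild-type cultures came from 1 stock was not tested, and the wild type was also compared as these pairs. All differences below are deletion minus wild type in log2 units, each with the standard error of a limma fit over all 5498 probe sets.

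None of the 38 wall probe sets passed the test of limma at an adjusted p under 0.05, a threshold that 0.2% of all probe sets passed (11 of 5498). At an unadjusted limma p under 0.05 there were 11 of 38, against 6.64% of all probe sets. Of the 11, 10 were lower in the deletion strain and 1 was higher, where 3.77% of all probe sets were lower and 2.87% higher at that p. The call count stayed at 0 with an intensity trend, a robust fit or an ordinary unmoderated test. It was 1 with array weights, which called PAU8 (-0.46, SE 0.07, limma adjusted p = 0.0310). That setting called 59 of all 5498 probe sets, against 11 in the main fit.

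The classes nevertheless differed in where their values lay. The median difference was -0.30 over the 16 seripauperin probe sets, against 0.0065 over all probe sets tested, and 12 of the 16 were lower by any amount, against 47.5% of all probe sets. The median was -0.00076 over the GPI mannoproteins, -0.046 over the other GPI proteins, 0.044 over the PIR proteins, -0.043 over the flocculins and -0.11 over the remodelling enzymes. In 8 of the 16 seripauperin probe sets every deletion array was lower than every wild-type array, which was so in 4.49% of all probe sets. Of these 8, 7 have probes that can also bind other transcripts, so the 8 may not be separate readings. None of the 22 other wall probe sets was separated in that direction or the opposite one. Because the lists were drawn up with earlier results of these data known, the medians and counts are descriptions without a test of their own.

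**Figure D1:**
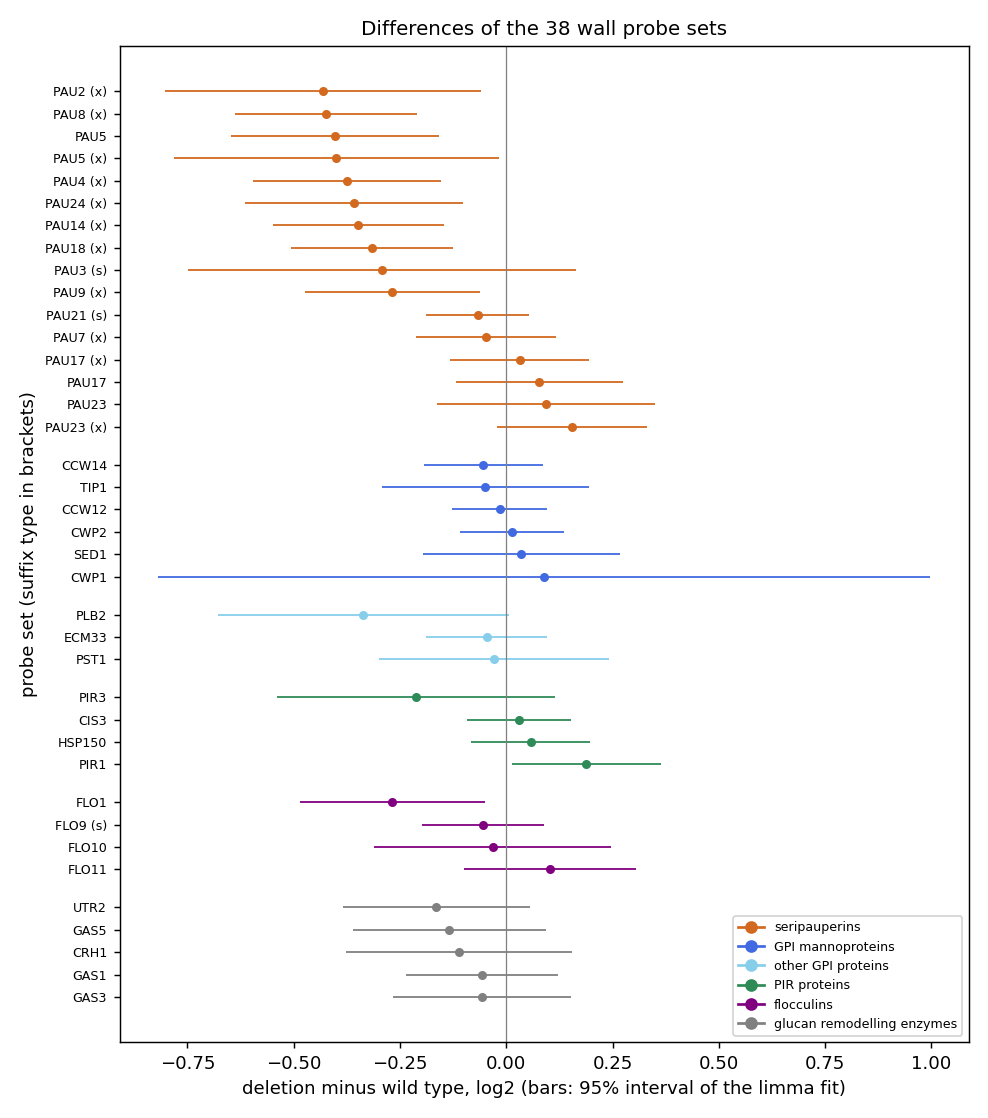
Difference of each of the 38 wall probe sets (horizontal axis, log2, deletion minus wild type) with its 95% interval from the limma fit, grouped by class; x or s in brackets marks a probe set with that suffix. The intervals of 9 of the 16 seripauperin probe sets lie wholly below 0, and that of 1 of the 22 other probe sets (FLO1).

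Among the seripauperins, the smallest p belonged to PAU8, the outermost protein-coding gene of its chromosome end in the R64 gene table of RefSeq. PAU8 was at 8.46, 8.46, 8.16 and 8.37 in wild-type replicates 1 to 4 and at 7.81, 8.00 and 8.00 in deletion replicates 1 to 3. Every deletion array was below every wild-type array, with replicate 3 the lowest of the wild type. The difference was -0.42 (SE 0.09, 95% interval -0.64 to -0.21, limma adjusted p = 0.289), which leaves 74.5% of the wild-type signal.

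PAU14 and PAU4 had the next smallest p. PAU14 was at 9.21, 9.23, 8.99 and 9.24 in the wild type and 8.80, 8.71 and 8.94 in the deletion strain, and PAU4 at 9.17, 9.13, 8.96 and 9.22 against 8.70, 8.61 and 8.92. Both ordered the arrays almost alike: wild-type replicate 3 was the lowest of the wild type, deletion replicate 2 the lowest of all, and the groups stayed apart by the narrow gap between wild-type replicate 3 and deletion replicate 3. The differences were -0.35 (SE 0.09) for PAU14 and -0.37 (SE 0.10) for PAU4, each with a limma adjusted p of 0.410. PAU18, PAU24, PAU9 and PAU2 were separated in the same direction, with differences of -0.32 (SE 0.08), -0.36 (SE 0.11), -0.27 (SE 0.09) and -0.43 (SE 0.16). Their limma adjusted p ran from 0.421 for PAU18 to 0.719 for PAU2, whose difference was -0.29 without wild-type replicate 1.

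All 7 of these probe sets carry the suffix _x_at, by which the array's maker marks probes that can also bind other transcripts. Of the 16 seripauperin probe sets, 11 have that suffix, 2 have _s_at, for probes shared by several similar transcripts, and 3 have neither. Over those 3, of PAU5, PAU17 and PAU23, the median difference was 0.077, with only PAU5 lower. The R64 table lists 24 seripauperin genes, which are known to be near-identical, and 11 of them had no probe set named only to them. A lower signal on a suffixed probe set can therefore not be assigned to 1 gene. Whether PAU14 and PAU4 were read from separate transcripts was not tested. In these bulk samples, fewer cells expressing a gene and less RNA per cell cannot be told apart. For comparison, 1 of 14 _x_at probe sets outside the wall genes was separated towards lower values (7.14%), against 4.49% of all probe sets. Their median difference was -0.015, and 9 of the 14 were lower by any amount. Of all 114 suffixed probe sets outside the wall genes, 75 were lower (65.8%), against 47.5% of all probe sets. Among these 114, 9 were separated towards lower values (7.89%), and the median difference was -0.019.

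PAU5 was the only seripauperin among the lower ones that also had a probe set without a suffix. On that probe set it was at 7.48, 7.15, 7.21 and 7.10 in the wild type and at 6.96, 6.72 and 6.81 in the deletion strain. The groups were separated, and replicate 1 was the highest of the wild type by a clear margin. Its difference was -0.40 (SE 0.11, 95% interval -0.65 to -0.16, limma adjusted p = 0.421). The _x_at probe set of PAU5 gave the same difference of -0.40 with a larger error (SE 0.17), and its groups overlapped: wild-type replicate 4, at 6.34, was below deletion replicates 1 and 3, at 6.45 and 6.36. Without deletion replicate 2 the _x_at difference of PAU5 was -0.26 and the unsuffixed one -0.35.

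**Figure D2:**
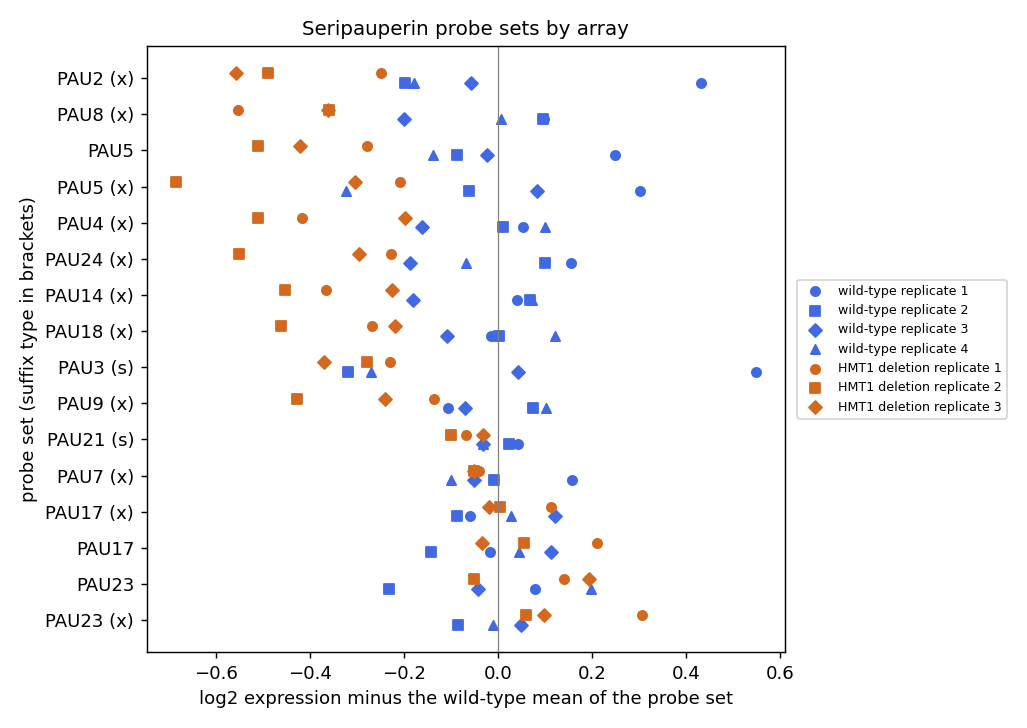
Log2 expression of each seripauperin probe set on each array (horizontal axis), set against the mean of its 4 wild-type arrays; blue symbols are wild-type arrays and orange symbols HMT1 deletion arrays. In 8 probe sets all orange symbols lie left of all blue ones, while PAU17 and PAU23, at the bottom, have their deletion arrays among or above the wild-type arrays.

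PAU17 and PAU23 did not share the lower values. Each has 1 probe set without a suffix and 1 with _x_at, and all 4 were higher in the deletion strain, by 0.08 (SE 0.08) and 0.03 (SE 0.07) for PAU17 and by 0.09 (SE 0.11) and 0.15 (SE 0.08) for PAU23. The unsuffixed PAU23 probe set was at 12.68, 12.36, 12.55 and 12.79 in the wild type and at 12.74, 12.55 and 12.79 in the deletion strain, so the groups overlapped over almost their whole range. The unsuffixed PAU17 probe set was at 10.81, 10.68, 10.94 and 10.87 against 11.04, 10.88 and 10.79, again with overlap. The _x_at probe set of PAU23 was the 1 seripauperin probe set with all deletion arrays above all wild-type arrays, a separation seen in 3.15% of all probe sets; its values were 9.001, 8.867, 9.001 and 8.941 against 9.260, 9.011 and 9.051. The lower bounds of the 95% intervals were -0.12 and -0.13 for PAU17 and -0.16 and -0.02 for PAU23, all above the differences measured for PAU8, PAU14 and PAU4; the difference between the genes was not tested.

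The remaining 3 seripauperins were close to the background or flat. PAU21, at a wild-type mean of 3.96, was within the range of the background controls in both strains and gives no measure of a change. PAU3 was at 5.42, 4.55, 4.92 and 4.60 in the wild type and 4.65, 4.59 and 4.50 in the deletion strain, with only wild-type replicate 1 above the background range, and its difference of -0.29 (SE 0.20) was -0.11 without that array and 0.0023 against wild-type replicates 2 and 4 alone. PAU7 was at 7.48, 7.31, 7.27 and 7.22 against 7.28, 7.27 and 7.27, a difference of -0.05 (SE 0.07) that was 0.0054 without wild-type replicate 1.

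The probe sets were also set against the position of the genes they are named to, which the choice of members did not use. In the R64 gene table, 8 seripauperin probe sets belong to genes with at most 10 protein-coding genes between them and the nearer chromosome end. All 8 were lower, with a median of -0.33, and 6 of them did not overlap, against 4.49% of all probe sets. They include PAU21, which lies at background, and PAU3, whose difference was 0.0023 against wild-type replicates 2 and 4 alone. The other 8 probe sets, of PAU2, PAU5, PAU7, PAU17 and PAU23, had a median of -0.0077, and PAU2 and PAU5, with 29 and 45 genes outside them, had differences of the same size as the genes next to the ends. PAU17 and PAU23 had 38 and 99 genes outside them. Among 265 probe sets of other genes within the same distance of an end, 27 were separated towards lower values (10.2%) and the median difference was -0.032. All 8 probe sets near an end carry a suffix and the 3 without one are all among the other 8, so position cannot be told apart from shared probes here, and a value on a suffixed probe set may come from another seripauperin at another place. The distance was chosen after the values had been seen.

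Some arrays were the highest or the lowest in many seripauperin probe sets, several of which may share signal. Wild-type replicate 1 was the highest of all 7 arrays in 8 of the 16 probe sets and wild-type replicate 4 in 5. Deletion replicate 2 was the lowest in 8. Taken as the median over the 16 probe sets of the deviation from the wild-type mean, wild-type replicates 1 to 4 were at 0.066, -0.035, -0.047 and -0.0027, and deletion replicates 1 to 3 at -0.22, -0.39 and -0.22. All 3 deletion arrays lay below every wild-type array on this summary. Leaving out any 1 array gave a median difference between -0.34 and -0.25. The number of probe sets not overlapping was then 8 or 9, a count that leaving out an array cannot lower. Against wild-type replicates 2 and 4 alone the median was -0.23 with 10 probe sets lower, and against replicates 1 and 3 alone -0.27 with 12 lower.

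**Figure D3:**
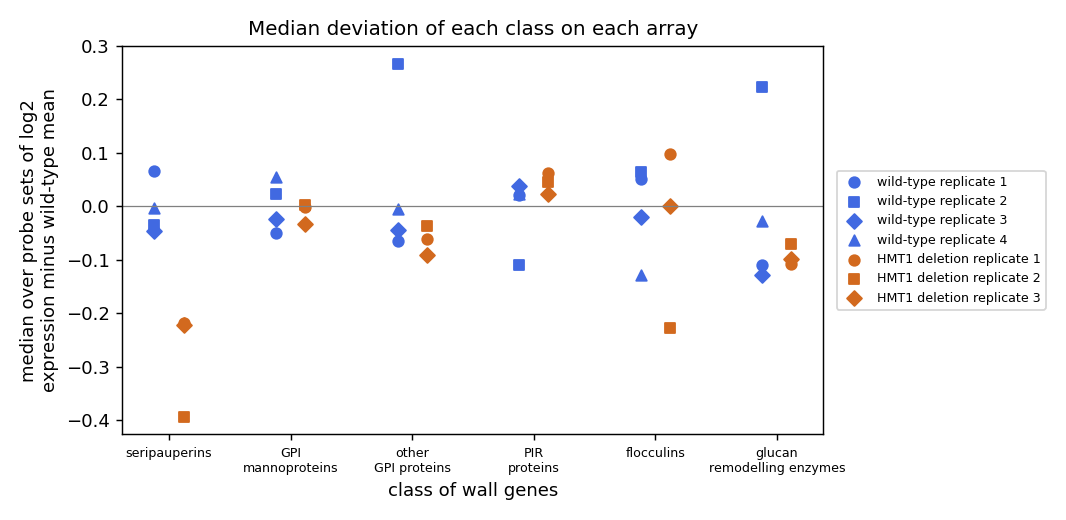
Median over the probe sets of each class of the deviation from the wild-type mean (vertical axis, log2), with 1 symbol per array. The 3 deletion arrays lie between -0.39 and -0.22 for the seripauperins, below all wild-type arrays; in the other 5 classes plotted the groups overlap, and wild-type replicate 2 stands above every other array for the other GPI proteins and the remodelling enzymes.

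The GPI mannoproteins of the wall include some of the most strongly expressed genes of yeast. CCW14, an inner-layer protein with a cysteine-rich domain, was at 13.31, 13.48, 13.33 and 13.37 in the wild type and at 13.33, 13.30 and 13.32 in the deletion strain, a difference of -0.05 (SE 0.06). TIP1, induced by cold and heat shock, was at 13.18, 12.94, 12.79 and 13.15 against 12.97, 12.88 and 13.06, a difference of -0.05 (SE 0.10). SED1, the main wall protein of stationary cells, was at 13.10, 13.38, 13.43 and 13.46 against 13.48, 13.39 and 13.27, a difference of 0.04 (SE 0.10). In these 3 genes the strains overlapped. Wild-type replicate 1 had the lowest SED1 value of the 7 arrays, and without it the SED1 difference was -0.04.

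CCW12 and CWP2, which stabilise the wall of growing cells, were measured with the greatest precision of the class. CCW12 differed by -0.02 (SE 0.05, 95% interval -0.13 to 0.10) and CWP2 by 0.01 (SE 0.05, -0.11 to 0.14), at wild-type means of 14.38 and 14.11, near the top of the scale, where RMA values are compressed. CWP1, a mannoprotein of the birth scar, was the most variable of the 38 probe sets. It was at 10.79, 12.18, 12.37 and 11.85 in the wild type and 12.02, 12.32 and 11.32 in the deletion strain, with wild-type replicate 1 and deletion replicate 3 the lowest of their groups. Its difference of 0.09 (SE 0.39) had a 95% interval from -0.82 to 1.00 and was -0.25 without wild-type replicate 1.

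Of the 3 other GPI proteins, PLB2 had the largest difference. PLB2, a phospholipase B that acts on lysophospholipids, was at 11.35, 11.45, 10.87 and 11.06 in the wild type and 10.83, 10.70 and 11.01 in the deletion strain. The groups overlapped through wild-type replicate 3 and deletion replicate 3, and the difference was -0.34 (SE 0.15, 95% interval -0.68 to 0.0069, limma adjusted p = 0.742). PST1, which is induced by wall damage, was at 11.06, 11.60, 11.31 and 11.33 against 11.31, 11.35 and 11.24, a difference of -0.03 (SE 0.12). ECM33, a relative of PST1 needed for normal wall assembly, was at 13.69, 13.87, 13.71 and 13.75 against 13.70, 13.72 and 13.71, a difference of -0.05 (SE 0.06). In all 3 genes wild-type replicate 2 was the highest of the 7 arrays.

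The PIR proteins spanned both directions. PIR1 was at 12.76, 12.68, 12.93 and 12.82 in the wild type and 13.07, 12.93 and 12.96 in the deletion strain, so that 2 deletion arrays were above every wild-type array and the third was level with wild-type replicate 3. Its difference of 0.19 (SE 0.08, limma adjusted p = 0.742) was the only higher one among the 38 at an unadjusted p under 0.05. PIR3, a protein of the same family induced by wall stress, was at 7.76, 7.30, 7.58 and 7.74 against 7.37, 7.17 and 7.61, a difference of -0.21 (SE 0.14) that was -0.10 without deletion replicate 2 and -0.33 without deletion replicate 3. HSP150, secreted and induced by heat, was at 13.36, 13.18, 13.31 and 13.26 against 13.35, 13.35 and 13.30, a difference of 0.06 (SE 0.06), and CIS3 differed by 0.03 (SE 0.05). Apart from PIR1 the 95% intervals of the family all included 0, the widest being -0.54 to 0.12 for PIR3.

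The flocculins had no separated member. FLO1, the chief flocculation lectin, had a low wild-type mean of 6.12, with values of 6.31, 6.10, 6.09 and 5.99 in the wild type and 5.84, 5.74 and 5.99 in the deletion strain. Wild-type replicate 4 and deletion replicate 3 met at 5.99, and the difference was -0.27 (SE 0.09, 95% interval -0.49 to -0.05, limma adjusted p = 0.656). FLO11, needed for adhesion and invasive growth, was at 7.41, 7.59, 7.42 and 7.31 against 7.66, 7.41 and 7.54, a difference of 0.10 (SE 0.09). FLO9, read by an _s_at probe set that can share signal with its relatives, was at 9.27, 9.33, 9.30 and 9.23 against 9.29, 9.13 and 9.26, a difference of -0.05 (SE 0.06). FLO10 differed by -0.03 (SE 0.12), and by 0.10 without deletion replicate 2, which was the lowest deletion array in all 4 flocculins.

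The remodelling enzymes were lower in the deletion strain in 5 of 5 cases, by 0.06 to 0.16, and wild-type replicate 2 was the highest array in all 5. UTR2, which links chitin to glucan, was at 13.32, 13.54, 13.15 and 13.25 in the wild type and 13.13, 13.10 and 13.22 in the deletion strain, a difference of -0.16 (SE 0.09). CRH1, its partner in that reaction, was at 12.09, 12.59, 12.32 and 12.24 against 12.22, 12.28 and 12.10, a difference of -0.11 (SE 0.11). GAS5, a glucan-elongating enzyme, was at 12.43, 12.80, 12.46 and 12.68 against 12.48, 12.43 and 12.46, a difference of -0.13 (SE 0.10). GAS1, the main enzyme of that kind in growing cells, and GAS3 each differed by -0.06 (SE 0.08 and 0.09). The class median of -0.11 was -0.02 without wild-type replicate 2 and 0.01 against wild-type replicates 1 and 3 alone. Over the 22 wall probe sets that are not seripauperins, 19 had a 95% interval within 0.5 of no difference; the other 3 were CWP1, PLB2 and PIR3.

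The DAN and TIR genes encode larger anaerobic mannoproteins that resemble the seripauperins; DAN2 and DAN3 are the older names of PAU23 and PAU24. None of the other 6 passed the test. DAN1 was at 9.19, 8.47, 6.90 and 7.58 in the wild type and 7.31, 5.63 and 6.89 in the deletion strain. The wild type alone spanned most of that range, and the difference of -1.43 (SE 0.59, limma adjusted p = 0.742) had an interval from -2.79 to -0.07 and was -0.94 without deletion replicate 2. TIR4 differed by -0.82 (SE 0.36), TIR3 by -0.53 (SE 0.24), TIR1 by -0.34 (SE 0.27), TIR2 by -0.07 (SE 0.12) and DAN4 by 0.04 (SE 0.09).

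As a class median of the deviation from the wild-type mean, these 6 genes were at 0.76, -0.098, -0.12 and -0.33 in wild-type replicates 1 to 4 and at -0.36, -0.53 and -0.43 in deletion replicates 1 to 3. As for the seripauperins, the deletion arrays lay below every wild-type array, here by a narrow gap to wild-type replicate 4.

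TIR3 was the 1 gene of these 6 whose groups did not overlap, where 4.49% of all probe sets were separated towards lower values. It was at 11.27, 10.26, 10.50 and 10.20 in the wild type and 10.12, 9.94 and 10.01 in the deletion strain. Wild-type replicate 1 was the highest wild-type array in all 6 genes and deletion replicate 2 the lowest deletion array in all 6, the same arrays that stood out among the seripauperins. Without wild-type replicate 1 the median of the 6 genes went from -0.44 to -0.18, the difference of TIR4 from -0.82 to -0.48, that of TIR3 from -0.53 to -0.30 and that of TIR1 from -0.34 to -0.07, while the seripauperin median was -0.29. Against wild-type replicates 2 and 4 alone the median of the 6 genes was -0.098, and against replicates 1 and 3 alone -0.78. The part of these arrays in either group of genes was not tested beyond leaving them out.

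**Figure D4:**
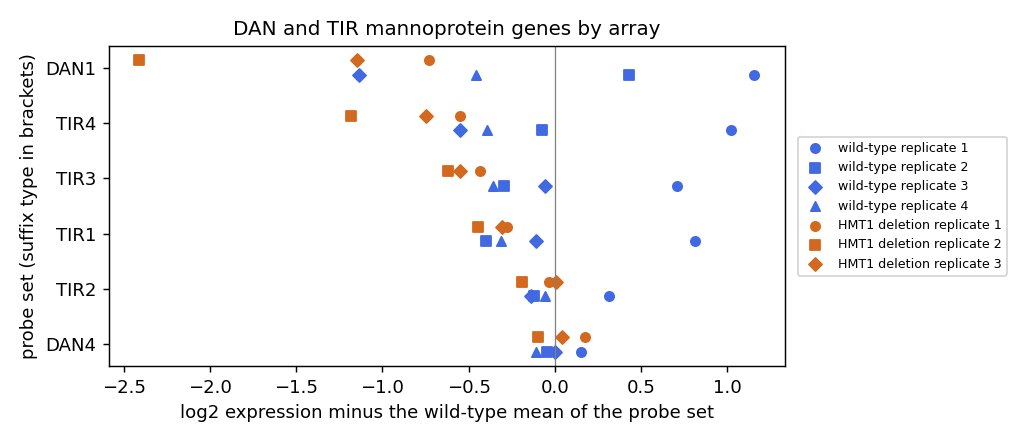
Log2 expression of the 6 DAN and TIR genes on each array (horizontal axis), set against the mean of the 4 wild-type arrays; blue symbols are wild-type arrays and orange symbols HMT1 deletion arrays. Wild-type replicate 1 lies furthest to the right of the wild-type symbols in every gene and deletion replicate 2 furthest to the left of the deletion symbols.

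None of the 10 genes for regulators of anaerobic wall genes passed the test, and their median difference was 0.059, with 7 higher and 3 lower. ROX1, the haem-dependent repressor of hypoxic genes, had the smallest p and differed by 0.21 (SE 0.11, limma adjusted p = 0.802). UPC2, an activator of sterol and anaerobic genes, was the only one of the 10 with separated groups and differed by -0.14 (SE 0.10). Of all probe sets, 4.49% were separated in that direction. At 9.59, 9.24, 9.28 and 9.23 in the wild type and 9.22, 9.13 and 9.22 in the deletion strain, its groups nearly touched, and wild-type replicate 1 was again the highest array.

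Other genes of the wall and of its control also gave no call. Of 20 genes for making glucan and chitin, 18 were lower and 2 higher, with a median of -0.066, and wild-type replicate 2 was the highest array in 15. SKN1, a glucan synthesis protein of the Kre6 family, had the smallest p there (-0.19, SE 0.07, limma adjusted p = 0.656). In the cell wall integrity pathway, the kinase cascade that answers wall damage, 14 of 20 genes were lower and 6 higher, with a median of -0.073. Its smallest p was that of YPS3, a yapsin protease of the cell surface (-0.36, SE 0.17, limma adjusted p = 0.779). Of 9 flocculin regulators 5 were higher and 4 lower (median 0.034), with NRG2, a repressor in glucose signalling, at 0.18 (SE 0.07, limma adjusted p = 0.742). The groups did not overlap in SKN1 and in the flocculin regulator MSS11, both lower, as in 4.49% of all probe sets. They did not overlap in NRG2 either, which was higher, as in 3.15% of all probe sets.

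The 6 a-cell markers had a median of 0.058, with MFA2, an a-factor gene, at 0.12 (SE 0.09), and the 4 alpha-cell markers a median of -0.015, with SAG1, the alpha-agglutinin gene, at -0.18 (SE 0.09). The groups of SAG1 were separated towards lower values, as in 4.49% of all probe sets. AGA2, the binding subunit of a-agglutinin at the wall surface, was at 10.54, 11.76, 10.49 and 12.04 in the wild type, low in replicates 1 and 3 and high in 2 and 4, and at 11.35, 11.57 and 11.47 in the deletion strain. Over all arrays it differed by 0.26 (SE 0.39, limma adjusted p = 0.887). Against wild-type replicates 1 and 3 alone it was the 1 gene of these related lists that passed (0.95, SE 0.08, limma adjusted p = 0.0387). In that comparison 7 of all 5498 probe sets passed. AGA2 was lowest on exactly the wild-type arrays kept there, so this call is no separate evidence of a change.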

How the data were processed

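The deposited table holds log2 expression values of 5900 probe sets on 7 arrays, which the authors made by RMA (affy 1.52.0) per the processing notes of the submitters. RMA equalises the distribution of probe intensities, not of probe set values, and compresses dim and bright signals; array medians ran from 9.950 to 9.982. Of the probe set definition, the test and the genome build nothing is stated, so no coordinates are given. Columns were matched to samples by accession and grouped by title. The platform annotation named 5498 probe sets to 1 gene each. The other 402, not named to exactly 1 gene, were left out. The groups were compared by the moderated test of limma 3.58.1 (lmFit, eBayes; R 4.3.3), two-sided, with Benjamini-Hochberg adjustment over the 5498 probe sets and a threshold of 0.05. The procedure was tested on simulated data, only with planted differences larger than that of any member probe set. Its recovery of smaller ones was not tested. Members and lists were chosen with earlier results of these data known. Described with all values were the 3 smallest p of each member list and, chosen after values were seen, PAU3, PAU5, PAU7, PAU17, PAU23, CWP1, MF(ALPHA)1, DAN1, TIR3, UPC2 and AGA2. All other members, every DAN and TIR gene and the smallest p of each related list were named; CIS3 and similar members are given by their difference. Plots were made in Python 3.11.15 with matplotlib 3.10.9. The alternatives left out single arrays, wild-type pairs, dim or suffixed probe sets, rescaled the arrays, or changed the variance model, the probe set rule, the threshold or the pairing. The number of arrays limits the precision, and p-values measure the spread between these samples, which the labels call biological replicates.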

Additional observations from a re-analysis of the deposited data

Results flagged for a closer look

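Among 44 wall, DAN and TIR probe sets, 1 had a wild-type array far from the other 3 by Dixon's test. PAU14 in wild-type replicate 3 was at 8.99, while the other 3 wild-type arrays lay between 9.21 and 9.24. Chance alone marks about 1 group in 20, so a single mark among 44 is not unusual. The PAU14 groups were separated with this array included.

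Of the 5 J01347 reporter probe sets, which were not tested between the strains but set the wild-type pairs, 2 were higher in all deletion arrays than in any wild-type array, with deletion means of 12.5 and 11.86. Wild-type replicates 2 and 4 were at 12.16 and 12.26 on the first of them and at 11.39 and 11.52 on the second, and wild-type replicates 1 and 3 at 3.64 and 4.05 and at 4.24 and 4.39.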

How the results depend on the processing

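HMT1 passed under every alternative that kept it, and all wall probe sets stayed uncalled except PAU8 with array weights, the 1 member called there; the related lists held 1 call, AGA2, against wild-type replicates 1 and 3. The 11 calls over all probe sets became 59 with array weights, 7 against wild-type replicates 1 and 3, 5 with the probe sets of a gene averaged, 4 without suffixed probe sets, 1 with the replicate block, the unmoderated test or a threshold of 0.01, 0 without dim probe sets (HMT1 itself fell below the limit of 8.82), and 1 to 9 when 1 array was left out. The replicate numbers did not pair the samples: deviations of same-numbered arrays correlated at -0.03, 0.17 and -0.51, not every array correlated best with its own number, and the block leaves wild-type replicate 4 without weight. With the replicate block the seripauperin median was -0.30, no member was called, and 12 seripauperin probe sets were lower.

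The seripauperin median of -0.30 became -0.20 with array weights, -0.23 against wild-type replicates 2 and 4, -0.12 without dim probe sets (4 lower, 4 not overlapping) and 0.077 without suffixed probe sets, where 1 of 3 was lower, PAU5, and 1 not overlapping. Fewer probe sets of the family remain in the last 2. Those of PAU2, PAU3, PAU5, PAU7, PAU8, PAU21 and PAU24 fell below the limit for dim probe sets. The 4 probe sets of PAU17 and PAU23, all higher in the deletion strain, were above it. Against wild-type replicates 2 and 4 the medians were -0.060 for the GPI mannoproteins and -0.17 for the other GPI proteins; that of the remodelling enzymes was 0.01 against replicates 1 and 3, and that of the flocculins 0.083 with array weights. Leaving out 1 array gave DAN and TIR medians from -0.55 to -0.18.

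Several differences changed sign, among them TIR1 (-0.34) and PAU3 (-0.29), as large as the seripauperin median; the cause was not tested. With array weights PAU7 was at 0.011, CWP2 at -0.019, SED1 at -0.012, FLO9 at 0.016 and FLO10 at 0.15. Against wild-type replicates 2 and 4, TIR1 was at 0.0097, TIR2 at 0.020, PAU3 at 0.0023, PAU7 at 0.0066, CWP1 at -0.13, CWP2 at -0.022 and SED1 at -0.042. Against replicates 1 and 3, DAN4 was at -0.036, PST1 at 0.11, ECM33 at 0.0091, GAS1 at 0.025, GAS3 at 0.041 and GAS5 at 0.014. Leaving out 1 array gave -0.12 to 0.036 for TIR2, -0.080 to 0.0054 for PAU7, -0.25 to 0.37 for CWP1, -0.045 to 0.090 for SED1, -0.12 to 0.0065 for TIP1, -0.14 to 0.10 for FLO10, -0.12 to 0.063 for PST1, -0.099 to 0.0017 for GAS1, -0.093 to 0.018 for GAS3, -0.026 to 0.11 for DAN4 and -0.0081 to 0.072 for the _x_at probe set of PAU17. The counts and medians of seripauperin overlap and of DAN and TIR genes under these alternatives were chosen after seeing the data. PAU21 and most values of PAU3 lie at background, which limits what they can show.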
